A study of Mus musculus with 6 samples.

Results

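Leukotrienes and prostaglandins are lipid mediators made from arachidonic acid, and the 10 genes described here encode the enzymes that release this fatty acid and turn it into them. The rule lists them by name and uses no measured value, taking cytosolic phospholipase A2, the lipoxygenases, the cyclooxygenases and the terminal synthases of both branches. All 10 were among the 16254 genes of the count table, and all 10 passed the filter on low counts that left 13498 genes for testing. The data are bulk RNA sequencing of bone marrow-derived eosinophils (BMDEs) from C57BL/6 mice of 6 to 12 weeks of age, grown from marrow with FLT3 ligand and stem cell factor and then with IL-5. On culture day 12, 3 cultures were treated for 24 h with 5e9 EVs per ml from activated TH2 cells, where EVs are extracellular vesicles. The 3 sham-treated cultures, labelled Media, received unconditioned medium taken through the same EV isolation. The comparison asks how EVs change the eosinophil transcriptome. Each library is that of a bulk culture.

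In this pathway cytosolic phospholipase A2 frees arachidonic acid from membrane phospholipids. 5-lipoxygenase, helped by its activating protein, oxidizes it to the unstable epoxide LTA4, which LTA4 hydrolase turns into the neutrophil attractant LTB4 and LTC4 synthase into the first of the cysteinyl leukotrienes, mediators for which eosinophils are well known. The cyclooxygenases instead make PGH2, from which separate synthases form PGE2, PGD2 and the other prostanoids, and 12/15-lipoxygenase, which eosinophils express strongly, makes hydroxy fatty acids and precursors of pro-resolving lipids.

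With EV treatment 7 of the 10 genes rose and 1 fell by edgeR's quasi-likelihood test, with a Benjamini-Hochberg adjusted p below 0.01. Over all genes tested, 12.1% were higher and 11.6% lower by the same rule, 23.7% in either direction. The sham- and EV-treated libraries did not overlap for the same 8 members, which was so for 49.6% of all genes tested (24.8% higher and 24.7% lower). The largest changes were a rise of the inducible cyclooxygenase gene Ptgs2, 4.76-fold, and a 19.0-fold fall of Hpgds, the hematopoietic PGD2 synthase. The genes of phospholipase, 5-lipoxygenase, 12/15-lipoxygenase and the constitutive cyclooxygenase rose by 1.61- to 1.80-fold, while Lta4h and Ptges did not pass the threshold. The median log2 fold change of the 10 genes was 0.71, against -0.01 over all genes tested. Among members whose call also came with a change of 2-fold or more, 2 were higher and 1 was lower, against 3.1% and 6.35% of all genes tested, 9.45% together.

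Library totals ranged from 23697620 to 37874426 estimated counts. Values below are normalized counts, scaled to the average of the 6 effective (TMM) library sizes, and a mean is given ± SD over the 3 cultures of a group. With 3 cultures per group an exact two-sided permutation test of a single value cannot fall below p = 0.1, so that the tests of genes rest on edgeR's quasi-likelihood fit across all genes with Benjamini-Hochberg adjustment. Eosinophil identity was checked first. All 8 eosinophil marker genes were present, Prg2 and Epx (granule proteins) among them, and together they took 28296 to 35809 counts per 1e6 in sham-treated and 40035 to 45160 in EV-treated libraries. Of the 8, 6 were higher with EVs, by log2 changes of 0.41 to 1.13, a range that holds those of Alox5, Alox15, Ptgs1 and Pla2g4a below, and none was lower. Prg2, which has most of the counts, and the IL-5 receptor gene Il5ra were not called (0.23 and -0.14). Marker genes of other cells moved as well. Of 10 macrophage markers, 9 were lower with EVs and 1, Adgre1, was higher, and the summed level of the list was 1849 to 2689 counts per 1e6 in sham-treated against 1307 to 1473 in EV-treated libraries, with no marker at 0. Adgre1 carries much of that sum, and without it, a choice made after its values were seen, the other 9 took 1162 to 2006 and 267 to 388. Of 10 mast cell or basophil markers, 5 were higher and none was lower among the 7 tested, and their summed level was 203 to 254 counts per 1e6 in sham-treated and 429 to 506 in EV-treated libraries. Gata2 and Hdc carried most of that sum, with means of 2464 and 2436 normalized counts in sham-treated and 5187 and 3594 in EV-treated libraries. Mcpt8 and Ms4a2 were far lower, at 79.6 and 117 in sham-treated and 448 and 742 in EV-treated libraries. In this list Tpsb2, a mast cell tryptase, was at 0 in all sham-treated libraries and had at most 3 counts in an EV-treated one. Mcpt4 and Cma1 were not among the genes of the count table, so that the sum covers 8 markers. Of 7 tested neutrophil markers 1 was higher and 4 were lower, and none of 4 dendritic cell markers and 1 T cell marker was called. In bulk RNA, a change in the number of cells of one type and a change in RNA per cell cannot be told apart, and the part of these other cells in the results below was not tested.

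**Figure D1:**
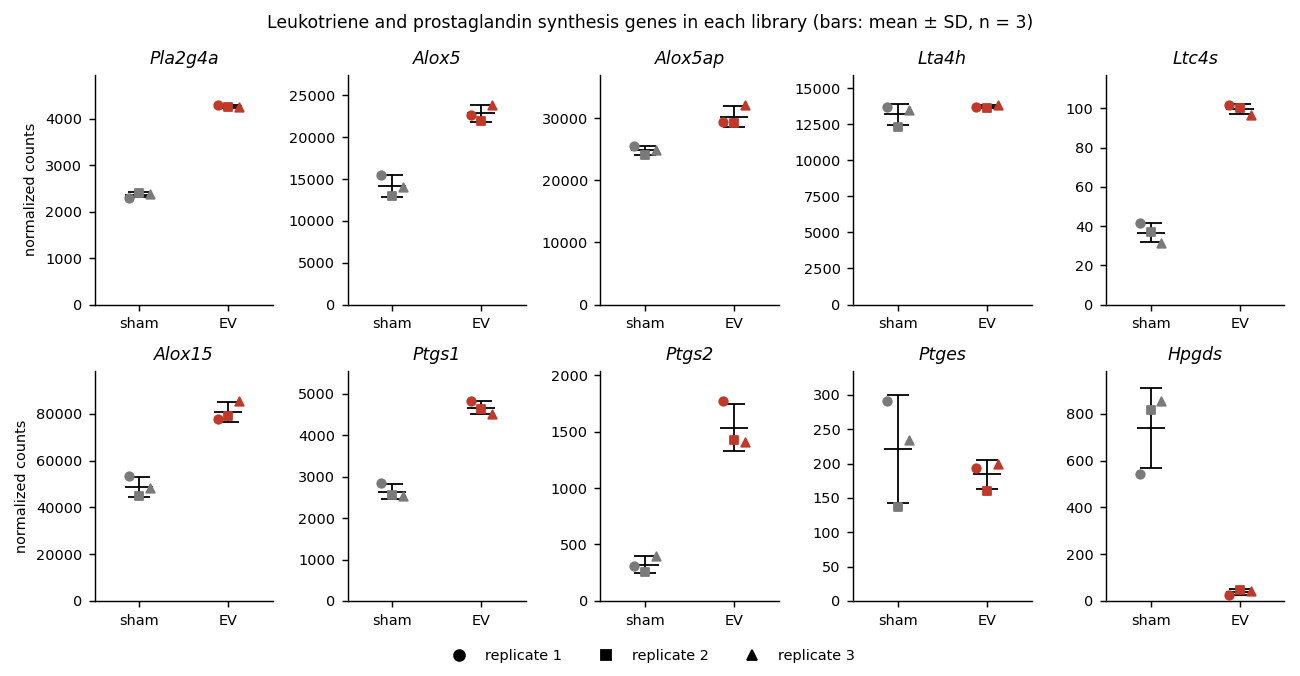
Normalized counts (vertical axes, each from 0) of the 10 synthesis genes in the 3 sham-treated and 3 EV-treated libraries, with points shaped by replicate number and bars giving mean ± SD. The groups do not overlap for 8 genes, and overlap for Lta4h and Ptges.

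Release of arachidonic acid was represented by Pla2g4a, which encodes cytosolic phospholipase A2 alpha (chr1:149829618-149961290, minus strand; coordinates are those of GENCODE vM21 on GRCm38). It had 2303, 2413 and 2390 normalized counts in sham replicates 1 to 3 and 4311, 4253 and 4249 in EV replicates 1 to 3. The 3 EV-treated libraries lay close together and far above the sham-treated ones. The change was 1.80-fold, or 0.85 on the log2 scale (standard error, SE, 0.0584, adjusted p = 3.05e-06).

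The first steps of leukotriene synthesis rose unequally. Alox5, encoding 5-lipoxygenase (chr6:116410077-116461178, minus strand), had 15482, 12947 and 14078 normalized counts in the sham-treated libraries and 22621, 21990 and 23912 in the EV-treated ones. Every EV-treated library was above every sham-treated one, with a log2 change of 0.69 (SE 0.0709, adjusted p = 4.24e-05). Alox5ap, the gene of the 5-lipoxygenase activating protein FLAP, which presents arachidonic acid to the enzyme (chr5:149264767-149288153, plus strand), had 25509, 24104 and 24803 normalized counts in sham-treated and 29326, 29220 and 32179 in EV-treated libraries. Its groups were also apart, but by a smaller log2 fold change of 0.29 (SE 0.0562, adjusted p = 0.00288). The call for Alox5ap was lost with no scaling beyond the library total (log2 fold change 0.14, adjusted p = 0.0484) and without sham replicate 2 (adjusted p = 0.0113), sham replicate 3 (0.0121) or EV replicate 3 (0.0152). Alox5 kept its call in each of these fits.

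Downstream of LTA4, the gene for the cysteinyl leukotriene branch was higher and that for the LTB4 branch was not called. Ltc4s, encoding LTC4 synthase (chr11:50236461-50238616, minus strand), had few reads, at 41.4, 36.8 and 31.6 normalized counts in sham-treated and 102, 100.3 and 96.6 in EV-treated libraries. The groups did not overlap, and the change was 2.71-fold with a 95% interval of 1.66 to 4.43, a log2 change of 1.44 (SE 0.318, adjusted p = 0.00558). Its adjusted p was 0.0107 with the replicate number as a block, 0.013 without sham replicate 3, and 0.0309, 0.0337 and 0.0327 without EV replicates 1, 2 and 3, all above the threshold of 0.01, while the log2 fold change stayed between 1.35 and 1.55 over the 6 fits without a library. Of the exonic bases of Ltc4s, 26.4% lie opposite an exon of Gm26542, and the strand setting of the counting is not given in the sources used here, so that reads of the pair cannot be told apart there. Lta4h, encoding LTA4 hydrolase (chr10:93453411-93484875, plus strand), had 13717, 12335 and 13474 normalized counts in sham-treated and 13683, 13620 and 13860 in EV-treated libraries. These ranges overlapped, and the fold change of 1.04 had a 95% interval of 0.954 to 1.14 (adjusted p = 0.469), whose upper end is below the lower end of that of Alox5, 1.44.

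Alox15, encoding 12/15-lipoxygenase (chr11:70344152-70352031, minus strand), had 53244, 44906 and 48143 normalized counts in sham-treated and 77580, 78943 and 85513 in EV-treated libraries. All EV-treated libraries lay above the sham-treated ones, with a log2 change of 0.73 (SE 0.0687, adjusted p = 2.43e-05). Alox15 and Alox5 thus rose by similar folds, 1.65 and 1.61.

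Both cyclooxygenase genes were higher in EV-treated BMDEs. Ptgs1, encoding the constitutive enzyme COX-1 (chr2:36230426-36252272, plus strand), had 2847, 2552 and 2524 normalized counts in sham-treated and 4829, 4634 and 4522 in EV-treated libraries, which did not overlap. Its log2 fold change was 0.82 (SE 0.0688, adjusted p = 1.08e-05). Ptgs2, encoding the inducible enzyme COX-2 (chr1:150100031-150108227, plus strand), had 312, 254 and 402 normalized counts in sham-treated and 1771, 1425 and 1411 in EV-treated libraries. Even the highest sham-treated library was far under the lowest EV-treated one. The log2 fold change of Ptgs2 was 2.25 (SE 0.163, adjusted p = 4.31e-06), and 5.39% of the genes tested changed by more in either direction.

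The terminal prostaglandin synthases did not follow the cyclooxygenases. Ptges, encoding the inducible microsomal PGE2 synthase (chr2:30889471-30929863, minus strand), had 291, 136 and 235 normalized counts in sham-treated and 193, 160 and 199 in EV-treated libraries. The EV-treated libraries lay within the range of the sham-treated ones, and the fold change of 0.832 had a 95% interval of 0.552 to 1.25 (adjusted p = 0.483), whose upper end is below the lower ends of those of Ptgs1 and Ptgs2, 1.59 and 3.70. Hpgds, encoding the hematopoietic PGD2 synthase (chr6:65117293-65144908, minus strand), had 544, 817 and 855 normalized counts in sham-treated and 24.0, 47.1 and 44.4 in EV-treated libraries. All EV-treated libraries lay far below the sham-treated ones, with a log2 change of -4.24 (SE 0.272, adjusted p = 2e-06), and 0.696% of the genes tested changed by more in either direction.

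**Figure D2:**
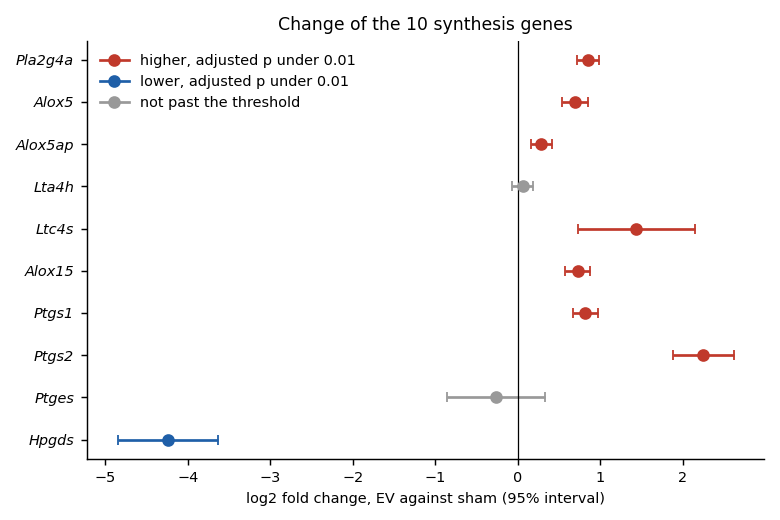
Log2 fold change (horizontal axis) of the 10 synthesis genes in EV-treated against sham-treated BMDEs with 95% intervals from edgeR's quasi-likelihood fit, in the order of the pathway. Ptgs2 at 2.25 and Hpgds at -4.24 stand apart from the other genes, and the intervals of Lta4h and Ptges include 0.

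Hpgds moved in the same direction as the macrophage markers, and its values in single libraries are given beside theirs. The log2 fold changes of the 9 lower macrophage markers ranged from -3.71, for the apolipoprotein gene Apoe, to -1.31, for the growth factor receptor gene Csf1r. EV replicate 1 was the lowest EV-treated library for all 9 of these markers, and sham replicate 1 the lowest sham-treated library for all 9. Hpgds was lowest in the same libraries. The share of all genes tested with this order was not counted, and the 2 libraries of replicate number 1 deviated together across genes (r = 0.206). No defining macrophage marker was at 0 in either group, and the part of these cells in the fall of Hpgds was not tested. Mast cells and basophils are also known to express Hpgds, Ltc4s and Alox5. Of their 7 tested markers, 5 were higher with EVs. These 5 had log2 fold changes of 0.56 to 2.64, among them Ms4a2, a chain of the IgE receptor, Mcpt8 and Cpa3, a mast cell protease, at 2.64, 2.46 and 1.30. Gata2 and Hdc, which carried most of the summed level, had 1.07 and 0.56. The other 2 tested, Kit and Fcer1a, were not called, at -0.23 and 1.55 (adjusted p = 0.355 and 0.0106). Ltc4s, at 1.44, lay within the range of the 5 higher markers. The part of mast cells and basophils in the rise of Ltc4s and in the fall of Hpgds was not tested.

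**Figure D3:**
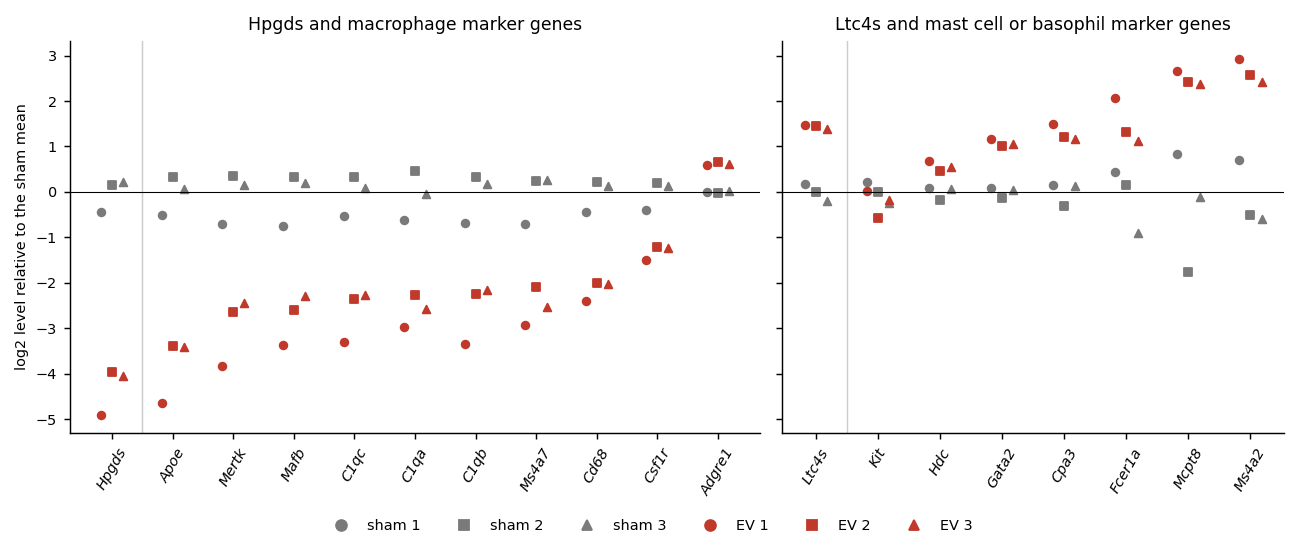
Log2 level of each gene relative to the mean of the sham-treated libraries (vertical axis, with 0.5 added to counts), for Hpgds beside the 10 macrophage markers and for Ltc4s beside the 7 tested mast cell or basophil markers. Each point is 1 library. In each EV-treated library Hpgds lies lower than the macrophage markers, 9 of which fell, and Ltc4s lies within the spread of the mast cell or basophil markers.

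Sequences upstream of RefSeq start sites were examined for the members. RefSeq promoter entries on GRCm38.p6 were found for 8 of the 10 genes, giving 9 windows of 250 bases before a start, 2 of them for Pla2g4a. RefSeq starts can differ from the ends of the GENCODE spans printed above. The Ptges window and the second Pla2g4a window lie inside those spans, as do 178 of the 250 bases of the Hpgds window and 84 of those of Ltc4s. They were searched on both strands for the STAT motif TTCNNNGAA, for the form preferred by STAT6, with 4 bases between TTC and GAA, and for the GATA motif AGATAA. The motifs occurred in 7.02%, 5.85% and 9.99% of all 32851 windows of that length. Among the 9 windows there was 1 match, to the STAT6 form, in the window of Ptges, a gene that was not called. The windows of the 6 called genes with an entry held none of the 3 motifs. Those shown are of the genes with the largest rise and fall and of the gene with the match, which is in capitals. For Hpgds only the part outside annotated exons of coding genes is given.
Ptgs2, chr1:150099781-150100030, plus strand: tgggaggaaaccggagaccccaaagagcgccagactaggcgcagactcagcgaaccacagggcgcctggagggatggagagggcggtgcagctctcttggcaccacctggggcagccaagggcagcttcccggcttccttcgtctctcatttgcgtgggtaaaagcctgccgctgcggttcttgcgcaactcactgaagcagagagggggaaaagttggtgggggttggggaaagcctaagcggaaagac
Hpgds, chr6:65144909-65144980, minus strand: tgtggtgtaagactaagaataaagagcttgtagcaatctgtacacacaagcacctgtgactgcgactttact
Ptges, chr2:30903298-30903547, minus strand: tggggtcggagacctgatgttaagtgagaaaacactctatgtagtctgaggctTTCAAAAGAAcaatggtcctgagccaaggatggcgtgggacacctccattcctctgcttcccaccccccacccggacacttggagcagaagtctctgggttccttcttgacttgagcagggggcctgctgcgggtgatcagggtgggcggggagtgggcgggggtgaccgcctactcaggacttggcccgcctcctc
The match in the Ptges window begins 197 bases before the start. A match is a description of the letters only, and binding was not measured.

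The order of the members by level was next compared on a scale that allows for transcript length, normalized counts per kilobase of the median coding transcript in GENCODE vM21. Alox5ap (30872 ± 874 in sham-treated BMDEs, SD, n = 3), Alox15 (20242 ± 1745), Alox5 (7345 ± 658) and Lta4h (6494 ± 364) were the most abundant. Genes of the lipoxygenase arm, Ltc4s aside, thus led the 10 members. Ptgs1 (921 ± 62.5) and Pla2g4a (832 ± 20.4) followed at a lower level. Hpgds (213 ± 48.8) came next, ahead of Ptgs2 (72.4 ± 16.8), Ltc4s (64.8 ± 8.73) and Ptges (60.5 ± 21.5). Among neighbours in this order, the libraries of Alox5 and Lta4h, of Ptgs2 and Ltc4s, and of Ltc4s and Ptges overlapped. In EV-treated BMDEs Hpgds was last, at 11.1 ± 3.64, and Ptgs2 lay ahead of Ltc4s, at 345 ± 45.9 and 176 ± 4.80, with no overlap between neighbours. With the longest coding transcript in place of the median, Alox15 was ahead of Alox5ap in both groups, and in sham-treated BMDEs Lta4h was ahead of Alox5 and Ptges ahead of Ltc4s, so that these places are not settled by the data.

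Ratios of genes within a library do not depend on the scaling between libraries. For 4 pairs of members they were compared with an exact two-sided permutation test, for which 0.1 is the smallest p possible. Ptgs2 and Ptgs1 encode enzymes of the same step, so that their ratio is not one of product branches. The log2 ratio of Ltc4s to Lta4h was -8.35, -8.37 and -8.71 in sham-treated and -7.06, -7.08 and -7.16 in EV-treated libraries, a 2.60-fold shift toward Ltc4s (p = 0.1, exact, and 0.133 adjusted over the 4 ratios). That of Ptgs2 to Ptgs1 was -3.19, -3.33 and -2.65 in sham-treated and -1.45, -1.70 and -1.68 in EV-treated libraries, a 2.72-fold shift toward Ptgs2 (p = 0.1, exact, and 0.133 adjusted). In both pairs the groups did not overlap. The log2 ratio of Ptges to Hpgds was -0.90, -2.58 and -1.86 in sham-treated and 2.98, 1.75 and 2.15 in EV-treated libraries, negative in every sham-treated and positive in every EV-treated library, with the same exact p. Alox15 to Alox5 was the one ratio whose groups overlapped, at 1.78 ± 0.0103 in sham-treated and 1.82 ± 0.0366 in EV-treated libraries (SD, n = 3, p = 0.3, exact), a shift of 1.03-fold.

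**Figure D4:**
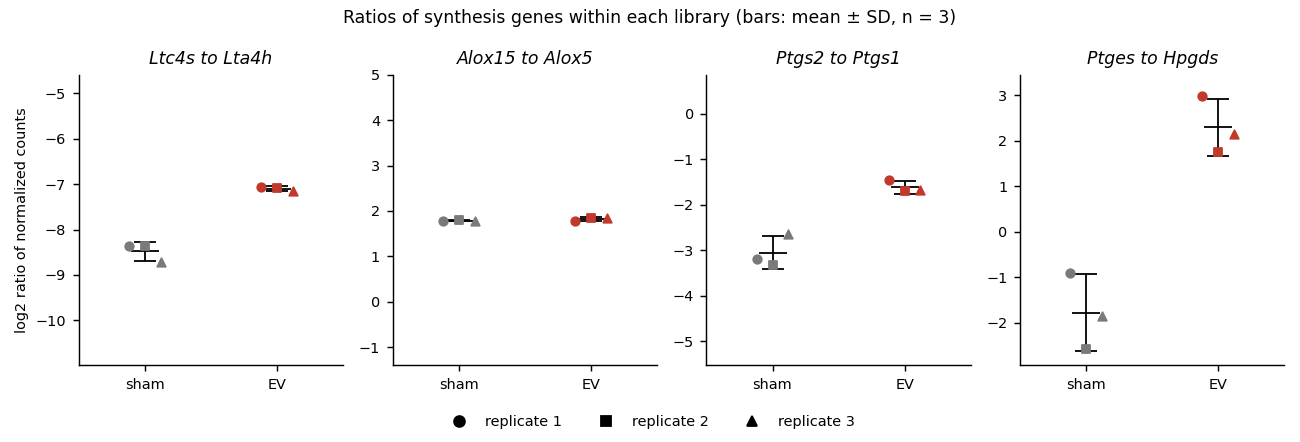
Log2 ratio of normalized counts of 2 genes within each library (vertical axes, all of the same span), for 4 pairs of members, with points shaped by replicate number and bars giving mean ± SD. The ratios of Ltc4s to Lta4h, Ptgs2 to Ptgs1 and Ptges to Hpgds lie higher in all EV-treated libraries, and that of Alox15 to Alox5 overlaps between the groups.

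Another 81 genes of arachidonate release, eicosanoid synthesis, transport, breakdown and reception were read from the same fit, of which 63 were in the table and 52 could be tested. Of these, 17 were higher and 12 were lower, with a median of 0.0026 in log2 fold change, against -0.01 over all genes tested. Over all genes tested, 12.1% were higher and 11.6% lower.

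Of the 15 tested genes that release arachidonic acid or return it to phospholipids, 5 were higher and 2 were lower. Lpcat3, which places arachidonate into membrane phospholipids, had 2680, 2648 and 2871 normalized counts in sham-treated and 5785, 5881 and 6145 in EV-treated libraries, a log2 change of 1.12 (adjusted p = 7.82e-07). Its groups were far apart. Pla2g3, a secreted phospholipase A2, rose by 0.71 on the log2 scale (adjusted p = 0.00401), a call that was lost with no scaling beyond the library total, without sham replicate 3 and without each EV replicate (adjusted p up to 0.0219). Lpcat1, an acyltransferase that prefers saturated fatty acids, fell from 615 ± 110 to 145 ± 11.1 (SD, n = 3), a log2 change of -2.08 (adjusted p = 8.98e-06). It was lowest in sham replicate 1 and EV replicate 1, as were the 9 lower macrophage markers. The part of macrophages in its fall was not tested.

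Among 5 tested genes of other lipoxygenases and lipoxygenase partners, 4 were higher and none was lower. Alox8, the mouse 8-lipoxygenase gene, rose from 87.2 ± 16.1 to 214 ± 21.4 (SD, n = 3), a log2 change of 1.29 (adjusted p = 0.00125, and 0.0108 without EV replicate 3). Cotl1, whose coactosin-like protein binds 5-lipoxygenase, and Gpx1, a glutathione peroxidase that reduces lipid hydroperoxides, rose by log2 fold changes of 0.63 and 0.65 (adjusted p = 1.51e-05 and 3.19e-05).

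Genes that conjugate, export or break down leukotrienes went both ways, with 1 higher and 3 lower of 10 tested. Dpep2, a dipeptidase that can convert LTD4 to LTE4, had 380, 726 and 595 normalized counts in sham-treated and 91.9, 132 and 84.4 in EV-treated libraries, a log2 change of -2.46 (adjusted p = 5.79e-05). Of its exonic bases 44% overlap exons of other genes, in part on the opposite strand, and 8.33% of its 31-base words occur in other genes, which leaves its reads uncertain. Mgst3 and Gstm4, both glutathione transferase genes, had log2 fold changes of -2.16 and -1.27 (adjusted p = 0.00182 and 0.000417), and Mgst3 was not called without sham replicate 3 (adjusted p = 0.0111) or EV replicate 2 (0.0123). Macrophage and neutrophil markers fell in the same comparison, and their part in these falls was not tested. Mgst3 was lowest in sham replicate 1 and EV replicate 1, the same libraries as for the 9 lower macrophage markers. Dpep2 was lowest in sham replicate 1 and EV replicate 3, and Gstm4 in sham replicate 2 and EV replicate 1.

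Of 6 other tested prostanoid synthases, 1 was higher and 3 were lower. Tbxas1, thromboxane A synthase, rose from 7362 ± 229 to 9746 ± 69.1 (SD, n = 3), a log2 change of 0.40 (adjusted p = 0.000211). Ptges3, a cochaperone also known as cytosolic PGE2 synthase, and Akr1b3, an aldose reductase with PGF2 synthase activity, had log2 fold changes of -0.36 and -0.38 (adjusted p = 0.00761 and 0.00992), both just inside the threshold, and each called in 1 of the 6 fits that left out a library. Ptges3 shares 20.3% of its 31-base words with a pseudogene, Ptges3-ps, and Akr1b3 shares 10.8% of its words with other genes, which leaves the division of their reads uncertain. Prxl2b, the third lower gene, which encodes a prostamide and prostaglandin F synthase, fell outside the naming rule for its low level and was added after its values were seen. It had 58.6, 118 and 97.2 normalized counts in sham-treated and 24.0, 18.9 and 14.8 in EV-treated libraries, a log2 change of -2.24 (adjusted p = 0.0029).

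Of 6 tested genes for prostanoid export, uptake and breakdown, none was higher and 3 were lower. Ptgr1 and Ptgr2, reductases that inactivate prostaglandin metabolites, had log2 fold changes of -0.90 and -0.32 (adjusted p = 0.00508 and 0.00915), and Abcc4, a transporter that exports PGE2, had -0.59 (adjusted p = 0.00279). With the replicate number as a block Ptgr2 was not called (adjusted p = 0.0144), and 32% of its exonic bases lie opposite exons of Gm47484. Leaving out single libraries raised the adjusted p to as much as 0.0322 for Ptgr1, 0.0508 for Ptgr2 and 0.0189 for Abcc4, with the call kept in 2, 1 and 1 of the 6 fits.

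Receptors for these mediators were also changed, 6 higher and 1 lower of 10 tested. Ltb4r2, the low-affinity LTB4 receptor BLT2, had 126, 96.8 and 177 normalized counts in sham-treated and 1402, 1355 and 1494 in EV-treated libraries, 10.6-fold higher (log2 fold change of 3.41, adjusted p = 6.24e-07). The high-affinity receptor gene Ltb4r1 rose by a log2 change of 0.45 (adjusted p = 0.00512, and up to 0.0281 without sham replicate 3, EV replicate 2 or EV replicate 3). Ptgdr2, the PGD2 receptor CRTH2 of type 2 immune cells, had 96.4, 60.1 and 53.5 normalized counts in sham-treated and 340, 283 and 306 in EV-treated libraries, a log2 change of 2.13 (adjusted p = 9.59e-05). It thus rose in the cultures in which the PGD2 synthase gene fell, and whether in the same cells was not tested. Its log2 change lay within the 0.56 to 2.64 of the 5 higher mast cell or basophil markers. The part of those cells in its rise was not tested. Of the exonic bases of Ptgdr2, 39% lie opposite exons of Ccdc86. The 4 tested PGE2 receptor genes parted, with Ptger3 and Ptger4 higher by log2 fold changes of 1.73 and 0.83 (adjusted p = 0.00115 and 2.99e-05) and Ptger2 lower by -1.52 (adjusted p = 0.000508). Ptger1, whose counts are uncertain because the strand setting is not given in the sources used here, had -0.30 (adjusted p = 0.732). Ptgir, the prostacyclin receptor gene, had 0.29 (adjusted p = 0.00529, blocked by replicate number 0.0109), and it was called in 1 of the 6 fits that left out a library. Cysltr1, a receptor for the cysteinyl leukotrienes, had low values, 12.6 to 54.7 normalized counts in sham-treated and 14.6 to 23.5 in EV-treated libraries, with a log2 change of -0.81 (adjusted p = 0.373), and a difference was not detectable at this depth. Fpr2, a formyl peptide receptor that also binds lipoxin, had -1.16 (adjusted p = 0.0364), and 43% of its 31-base words occur in other genes.

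**Figure D5:**
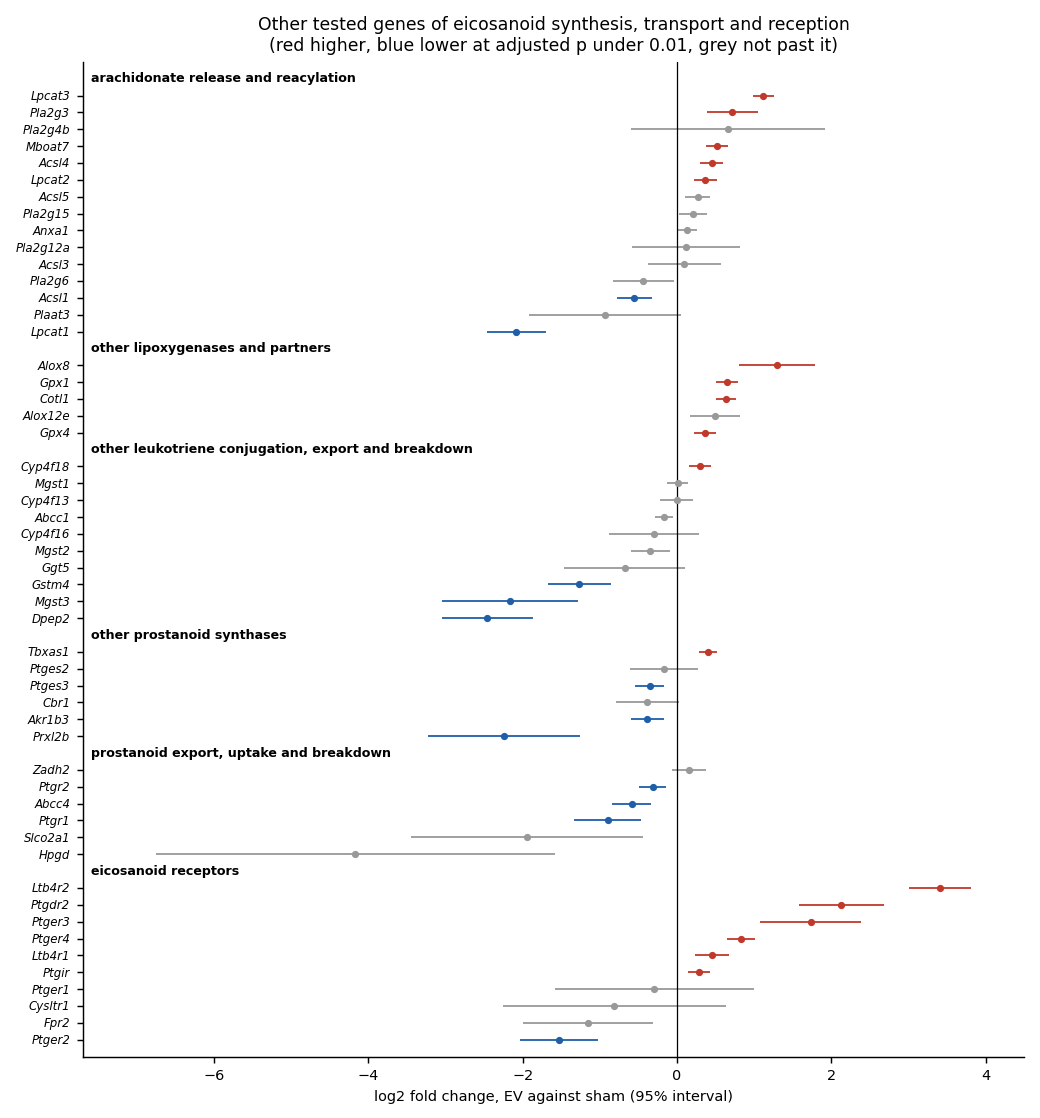
Log2 fold change (horizontal axis) of the 52 tested genes of eicosanoid synthesis, transport and reception outside the 10 members, with 95% intervals, grouped by role. Red points are higher and blue points lower at an adjusted p under 0.01, and the receptor gene Ltb4r2, at 3.41, lies farthest to the right.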

How the data were processed

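Libraries from poly(A)-selected RNA of 3 sham- and 3 EV-treated cultures were sequenced on a NovaSeq. The authors checked reads with FastQC, trimmed them with Cutadapt and quantified them with Salmon, and the submitters' processing notes name mm10. Versions, annotation and strand setting are not given in the sources used here. The authors deposited estimated counts, which were rounded and compared with edgeR 4.0.16 in R 4.3.3 (TMM, filterByExpr, quasi-likelihood test, adjusted p under 0.01). The deposited normalized counts and the authors' table of fold changes and p-values were not used. SEs were derived from the F statistics. The test was checked on simulated counts.

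Groups and replicate numbers came from the labels and column names. Between groups, libraries with equal numbers deviated together (r = 0.206, 0.18 and 0.117 across 10454 genes with a mean of at least 100 normalized counts), so the numbers were taken to pair the samples. The main fit took treatment only and did not use this pairing. With the replicate number as a block, 6 members were higher and 1 was lower. Chi-square per gene between replicates was 8.75 to 33.3, above sampling noise for every pair. Members and gene lists were chosen with earlier results of these data known. Named genes are the 10 members, the 3 called genes of each list with the largest change and a mean of at least 100 normalized counts, and all tested receptors, with cell type markers beside them. Alternatives were other scalings, no filter, DESeq2 1.42.0, limma 3.58.1 (voom), the replicate block, other thresholds, another pseudocount and leaving out each sample. Transcript lengths, overlaps and shared 31-base words came from GENCODE vM21.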

Additional observations from a re-analysis of the deposited data

How the results depend on the processing

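Of the 8 members called, 6 (Pla2g4a, Alox5, Alox15, Ptgs1, Ptgs2 and Hpgds) stayed past the threshold in all 13 refits, and no called member or named pathway gene changed direction in them. Of 22 other named pathway genes that were called, 12 stayed past it in all 13. Markers were not refitted. Beside the losses given above, Akr1b3 and Ptgr2 were lost with no filter and with DESeq2 size factors, Akr1b3 with limma (adjusted p = 0.0125), and Ltb4r1 and Ptgir with upper quartile scaling and with no scaling beyond the library total (adjusted p = 0.026 and 0.117). Leaving out each library in turn gave 5 to 7 members higher and 1 lower, and 12 to 18 other pathway genes higher and 5 to 10 lower, with 5 lower without sham replicate 3, EV replicate 2 or EV replicate 3. With no scaling beyond the library total, the median log2 fold change of all genes moved from -0.01 to -0.16, and the genes called from 1632 higher and 1572 lower to 1036 and 2342. Under it 11 other pathway genes were higher, Alox5ap had an adjusted p of 0.0484 and Lta4h a log2 fold change of -0.0898. Also requiring a 2-fold change left 2 members higher, and 5 other pathway genes higher and 6 lower. Ptger1, which was not called, had a log2 fold change of 0.0688 with limma and between -0.712 and 0.00248 without single libraries, the latter without sham replicate 2. The replicate block turned the calls of Ltc4s, Ptgr2 and Ptgir, and of no other member or named pathway gene. For the 4 ratios the block leaves the difference as it is by construction, and its exact p, which cannot fall below 0.25, was 0.25 for 3 of them and 0.5 for Alox15 to Alox5. The ratios kept their direction with a pseudocount of 5 and in each fit without a library, where the difference ranged from 1.26 to 1.44 for Ltc4s to Lta4h, 0.0248 to 0.0578 for Alox15 to Alox5, 1.31 to 1.65 for Ptgs2 to Ptgs1 and 3.68 to 4.52 for Ptges to Hpgds on the log2 scale. The low counts of Ltc4s limit its precision.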
